A study of Mus musculus with 6 samples.

Results

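The antisense transcript loci of mouse ovary were followed here with and without Trim28 in the somatic cells. The loci were chosen by 2 criteria, an annotation as antisense in the deposited gene table and at least 60 raw reads summed over the 6 libraries, and 539 of 34461 genes met both. Nespas, Airn and Kcnq1ot1 had also passed and were left out by name. The sum chose the loci but not the direction of any difference, although a locus with few reads could pass through the reads of 1 group alone.

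Whole ovaries were taken from 3 Trim28 cKO mice and 3 control mice, all 7 months old and on a mixed 129SV/C57BL6/J background. The Trim28 cKO mice were Trim28 flox/flox; Nr5a1:Cre, in which Cre is active in the somatic cells of the gonad, so that cells outside this lineage, such as oocytes, kept the gene. The controls were Trim28 flox/flox without Cre or Trim28 flox/+; Nr5a1:Cre, and the labels do not say which control carried Cre. Libraries were polyA-selected and strand-marked, and held 32441021, 43904823 and 48508461 assigned reads in Trim28 cKO and 38547807, 23615580 and 45033787 in control.

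An antisense transcript is made from the strand opposite to a protein-coding gene and usually encodes no protein. Some start close to the promoter of the coding gene and run away from it, some lie inside an intron, and some meet the coding transcript tail to tail. Antisense RNAs are known to act on their neighbours by guiding chromatin modifiers, by blocking transcription or by pairing with the sense RNA, while many are by-products of an open promoter. TRIM28 is a corepressor that KRAB zinc finger proteins bring to DNA, where it recruits the histone methyltransferase SETDB1 and heterochromatin protein HP1, and it also acts as a SUMO E3 ligase.

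Sequences at the beginning of 7 called loci are shown so that the starts of the transcripts can be read beside their values. The first 100 bases of the GENCODE M21 transcripts of Gm44199 (chr6:113612346-113612445, minus strand) and Gm31305 (chr3:97730339-97730438, plus strand) are given in GRCm38, 5′ to 3′. No motif was searched in them and they carry no capitals. For Gm31305 the sequence is from a transcript of 710 bases. Another Gm31305 transcript, of 761 bases, begins at 97730529 with a different first exon and is not shown.
Gm44199: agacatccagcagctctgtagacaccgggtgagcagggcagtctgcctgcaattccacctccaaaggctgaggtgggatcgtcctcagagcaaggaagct
Gm31305: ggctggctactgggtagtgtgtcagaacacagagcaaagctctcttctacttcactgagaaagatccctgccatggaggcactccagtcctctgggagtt

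For the other 5, picked after their letters were seen because their windows hold at least 1 of the motifs below, the RefSeq window from 250 bases before to 50 bases after the start is given in GRCm38.p6, 5′ to 3′ on the strand of the locus. Capitals mark matches on either strand to 5 motifs: TATAAA for the core promoter box, AAGGTCA for SF1 (the Nr5a1 product), TAAACA for forkhead factors, ACAATGG for SOX factors and AGATAA for the GATA family. The windows are 4930533K18Rik (chr10:70868391-70868690, plus strand) and Uckl1os (chr2:181578230-181578529, plus strand), which were higher in Trim28 cKO ovaries. Arhgap20os (chr9:51875836-51876135, minus strand), 4833422C13Rik (chr13:91741823-91742122, minus strand) and Gm16299 (chr19:53825163-53825462, minus strand) were lower in Trim28 cKO ovaries.
4930533K18Rik: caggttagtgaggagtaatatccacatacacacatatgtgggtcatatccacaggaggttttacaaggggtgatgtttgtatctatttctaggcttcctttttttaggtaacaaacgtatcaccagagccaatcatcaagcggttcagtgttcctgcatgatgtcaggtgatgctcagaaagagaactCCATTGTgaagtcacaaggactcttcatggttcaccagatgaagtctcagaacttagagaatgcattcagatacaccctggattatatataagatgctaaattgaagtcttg
Uckl1os: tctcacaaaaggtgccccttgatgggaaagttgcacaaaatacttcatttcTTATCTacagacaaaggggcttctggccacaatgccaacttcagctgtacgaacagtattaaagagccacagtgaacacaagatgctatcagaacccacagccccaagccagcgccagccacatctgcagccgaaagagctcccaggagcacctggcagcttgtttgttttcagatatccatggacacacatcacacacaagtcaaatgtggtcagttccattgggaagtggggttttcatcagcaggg
Arhgap20os: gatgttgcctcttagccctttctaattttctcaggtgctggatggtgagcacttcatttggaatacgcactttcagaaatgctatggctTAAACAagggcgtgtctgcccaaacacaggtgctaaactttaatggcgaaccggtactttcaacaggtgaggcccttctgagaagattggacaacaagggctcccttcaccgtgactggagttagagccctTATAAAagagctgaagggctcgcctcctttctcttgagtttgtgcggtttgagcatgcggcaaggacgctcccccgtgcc
4833422C13Rik: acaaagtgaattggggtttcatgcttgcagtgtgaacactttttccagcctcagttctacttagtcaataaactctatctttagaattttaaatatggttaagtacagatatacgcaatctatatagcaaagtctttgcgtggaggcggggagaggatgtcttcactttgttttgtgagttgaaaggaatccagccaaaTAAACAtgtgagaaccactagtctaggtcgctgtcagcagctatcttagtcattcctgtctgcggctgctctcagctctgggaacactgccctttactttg
Gm16299: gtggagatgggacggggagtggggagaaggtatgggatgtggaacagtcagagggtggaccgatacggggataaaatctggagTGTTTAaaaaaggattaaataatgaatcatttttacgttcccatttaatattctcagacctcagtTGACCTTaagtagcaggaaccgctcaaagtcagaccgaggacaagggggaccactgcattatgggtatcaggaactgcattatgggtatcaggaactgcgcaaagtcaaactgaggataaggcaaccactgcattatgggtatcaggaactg

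RefSeq windows on the same chromosome and strand were found for 276 of the 539 loci, and loci on chromosome 18 were left out of this search. The SF1 letters stood in 16 of these 276 windows and the forkhead letters in 40, while 4.72% and 13.4% of all 32851 RefSeq windows held them. The SOX letters were found in 13 loci (3.66% of all windows), the GATA letters in 18 (11.2%) and the TATA letters in 24 (13.6%). Arhgap20os had TATAAA beginning 30 bases before its start, and 4930533K18Rik had the SOX letters on the other strand. Called loci with such a window within 150 bases of the GENCODE start and outside coding exons numbered 32. Of these, 18 held any of the motifs, and Gm20275, 9430041J12Rik and Gm16130 were among those that held none. The share of all windows with any of the 5 motifs was not counted, so the 18 cannot be called many or few. A match describes letters and not a bound site.

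Trim28 RNA itself was 48.8, 55.6 and 71.3 CPM (reads per 1000000 assigned reads, scaled by TMM factors) in Trim28 cKO ovaries, against 155, 178 and 155 CPM in control ovaries (log2 fold change -1.47 ± 0.15 SE, edgeR adjusted p = 0.00066). The groups did not overlap, and some Trim28 RNA was left in the mutant ovaries. Several marker lists held a larger share of called genes than the 20.2% higher and 16.8% lower of all genes tested. Of 20 Sertoli cell markers 17 were higher, with a summed level of 6007 to 10115 CPM in Trim28 cKO ovaries and 2275 to 2739 CPM in control ovaries. All 16 macrophage markers were higher (3174 to 5831 CPM in Trim28 cKO ovaries, 529.8 to 629.2 CPM in control ovaries), and 4 of 12 lymphocyte markers were higher (80.3 to 175 CPM in Trim28 cKO ovaries, 27.9 to 79.4 CPM in control ovaries). Of 20 oocyte markers 16 were lower (76.9 to 99.6 CPM in Trim28 cKO ovaries, 417 to 845 CPM in control ovaries). Of 20 granulosa markers 11 were lower and 2 higher (3253 to 3589 CPM in Trim28 cKO ovaries, 4265 to 4762 CPM in control ovaries). Of 12 luteal, theca and Leydig markers 8 were lower and 3 higher (5696 to 7078 CPM in Trim28 cKO ovaries, 21220 to 35484 CPM in control ovaries). Of 9 surface epithelium markers 5 were higher and 1 lower (323 to 629 CPM in Trim28 cKO ovaries, 113 to 188 CPM in control ovaries), and of 9 smooth muscle and pericyte markers 1 was higher and 5 were lower (759 to 1348 CPM in Trim28 cKO ovaries, 1724 to 2139 CPM in control ovaries). Of 10 endothelial and of 10 stromal markers 7 each did not pass the test, nor did the 7 markers of motile cilia. No marker found in the table was at 0 in all libraries. The part of these changes in the values of the antisense loci was not tested, and in whole ovaries fewer cells of a type and less RNA per cell cannot be told apart.

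Antisense loci made up a small share of the ovarian RNA. Together they held 0.177%, 0.186% and 0.2% of the assigned reads in Trim28 cKO libraries and 0.173%, 0.179% and 0.185% in control libraries. Their summed level was 1836, 1868 and 2026 CPM in Trim28 cKO ovaries, against 1707, 1723 and 1848 CPM in control ovaries, so the groups overlapped. Without the most abundant locus, A530020G20Rik, the sums were 1574, 1584 and 1623 CPM in Trim28 cKO ovaries, against 1447, 1383 and 1562 CPM in control ovaries, and the groups did not overlap. The median locus averaged 0.948 CPM. A530020G20Rik alone gave 316 ± 76.2 CPM in Trim28 cKO ovaries and 295 ± 40.9 CPM in control ovaries (SD, n = 3 each).

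Of the 539 loci, 528 had enough reads to be tested, and 73 were higher and 55 lower in Trim28 cKO ovaries at an adjusted p of at most 0.05 (edgeR quasi-likelihood test, Benjamini-Hochberg adjustment over 18959 genes). These are 13.8% and 10.4% of the tested loci, whereas 20.2% of all tested genes were higher and 16.8% were lower. The median log2 fold change was 0.02 over the antisense loci and 0.0010 over all genes tested. Of the 73 higher loci 71 differed by more than 2-fold, as did 46 of the 55 lower loci. Among lincRNAs with the same minimum of reads, 144 of 715 tested (20.1%) were higher and 90 (12.6%) lower. Of these lincRNAs 133 and 78 differed by more than 2-fold. With 1 library left out, the count of lower loci was 34 for Trim28 cKO replicate 2, 34 for Trim28 cKO replicate 3, 29 for control replicate 1 and 31 for control replicate 3, while the count of higher loci lay between 52 and 63 with any 1 library left out.

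**Figure D1:**
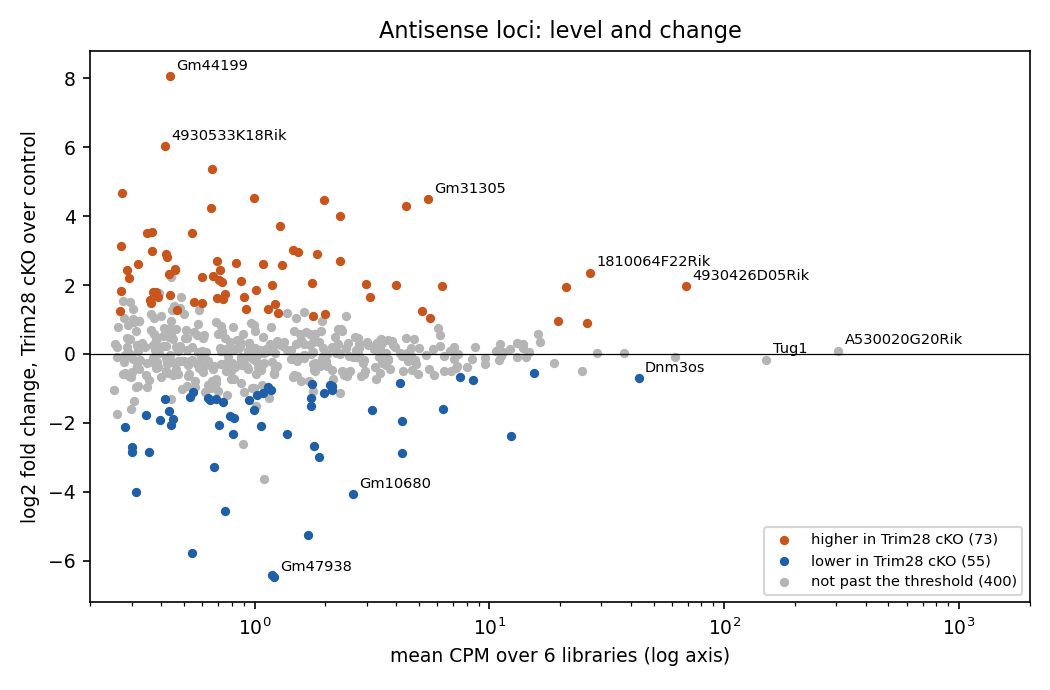
Mean level of each of the 528 tested antisense loci over the 6 libraries (x axis, CPM, log scale) against its log2 fold change, Trim28 cKO over control (y axis), with the 73 higher loci in orange, the 55 lower loci in blue and the others in grey. The loci with the largest changes lie at low levels, and among the most abundant, 4930426D05Rik and 1810064F22Rik lie well above 0. The fitted value of Gm44199, which had no control reads, depends on the prior count.

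The share of called loci was set beside that of all genes of similar read numbers. With 60 to fewer than 120 summed reads, 24 of 145 tested antisense loci (16.6%) were higher and 11 (7.59%) lower, against 13.8% and 8.07% of all tested genes in that range. From 120 to fewer than 300 reads 14.8% were higher and 12.4% lower, against 19.3% and 13.3% of all genes. From 300 to fewer than 1000 reads the shares were 9.66% and 11.7%, against 23.8% and 15.2%, and from 1000 reads upward they were 14.5% and 8.70%, against 20.8% and 18.8%. These shares are a description and were not tested against each other.

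The 11 loci left out of the test had between 60 and 96 reads in all, often mostly in 1 library. Gm15587, inside the region of Nos3, is an example picked outside the naming rules given below. It had 0, 6 and 11 reads in Trim28 cKO ovaries and 0, 49 and 3 reads in control ovaries. Just inside the minimum of 60 reads stood Gm16048, Gm5106, D030025P21Rik, 9630001P10Rik and Gm45645 with 60 each. Just outside stood Gm12214 and 4933417D19Rik with 59 each.

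Several loci were almost silent in control ovaries and were read in every Trim28 cKO ovary. Gm44199 (ENSMUSG00000107560), inside Brk1 on chromosome 6 at 113610318 to 113612445, had 33, 47 and 23 reads in Trim28 cKO ovaries and none in any control ovary. Set against 3 reads over the whole control group, a limit for a count of 0, it was 30.4-fold higher in Trim28 cKO ovaries (edgeR adjusted p = 0.0031). That value allows for counting error in the control group only. It leaves out counting error in Trim28 cKO ovaries and the spread between libraries. Brk1, which encodes a subunit of the WAVE complex that drives actin branching, was 121 ± 15.4 CPM in Trim28 cKO ovaries and 96.1 ± 9.51 CPM in control ovaries (SD, n = 3 each) and did not pass the test (adjusted p = 0.074). Gm44199 had 4.2% of its exonic bases under exons of the other strand.

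4930533K18Rik, which meets Bicc1 tail to tail, had 17, 50 and 37 reads in Trim28 cKO ovaries and 0, 1 and 0 reads in control ovaries, which is 92.1-fold (exact counting interval at 95%, 16.2 to 3670). Bicc1 encodes an RNA-binding protein and did not pass the test (log2 fold change 0.29 ± 0.18 SE). Gm20275, tail to tail with the unconventional myosin gene Myo9a, had 14, 32 and 20 reads in Trim28 cKO ovaries and 0, 0 and 2 reads in control ovaries, a ratio of 29.2 (interval 7.77 to 246). Gm13962 overlapped no coding gene and had 57, 44 and 50 reads in Trim28 cKO ovaries, against 2, 1 and 0 reads in control ovaries, a ratio of 44.6 (interval 15 to 218). For these loci every Trim28 cKO library lay above every control library, and the intervals cover counting error only.

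Loci with more reads also differed between the genotypes. Gm31305 (ENSMUSG00000105245, chromosome 3, 97730339 to 97736166), inside Pde4dip, was 5.84, 12.6 and 13 CPM in Trim28 cKO ovaries, against 0.333, 0.531 and 0.531 CPM in control ovaries. The log2 fold change was 4.49 ± 0.41 (SE, edgeR adjusted p = 0.00047). Pde4dip, a scaffold protein gene of the centrosome and Golgi, was 76.4 ± 9.45 CPM in Trim28 cKO ovaries and 75.9 ± 6.64 CPM in control ovaries. None of the exonic bases of Gm31305 lay under exons of the other strand.

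Uckl1os (ENSMUSG00000010492, chromosome 2, 181578480 to 181585170) was 9.23, 11.2 and 4.87 CPM in Trim28 cKO ovaries, against 0.436, 0.286 and 0.531 CPM in control ovaries (log2 fold change 4.29 ± 0.42 SE, adjusted p = 0.00055). Uckl1, the uridine-cytidine kinase-like gene with which its start overlaps, was 49.6 ± 1.68 CPM in Trim28 cKO ovaries and 50.9 ± 3.39 CPM in control ovaries (adjusted p = 0.79). Gm28884, inside 4933407L21Rik, was 4.17, 4.59 and 2.62 CPM in Trim28 cKO ovaries, against 0.180, 0.0817 and 0.221 CPM in control ovaries (log2 fold change 4.46 ± 0.43 SE). Its coding neighbour was read at 0.366 ± 0.127 CPM in Trim28 cKO ovaries and 0.177 ± 0.135 CPM in control ovaries and did not pass the test. In all these cases the groups did not overlap, which is no added support, since the loci were picked by call and fold change in these libraries.

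9430041J12Rik differed from the preceding loci in that its neighbour was also called. It was 2.02, 2.10 and 1.63 CPM in Trim28 cKO ovaries, against 0.0769, 0.0408 and 0.111 CPM in control ovaries (log2 fold change 4.51 ± 0.39 SE, adjusted p = 0.00040). Ttyh1, a tweety family membrane protein gene whose start it overlaps, was 101, 114 and 55.9 CPM in Trim28 cKO ovaries, against 1.54, 1.39 and 1.73 CPM in control ovaries (log2 fold change 5.85 ± 0.32 SE). D030047H15Rik, at the other end of Ttyh1, was 0.705, 0.365 and 0.481 CPM in Trim28 cKO ovaries and 0.359, 0.653 and 0.332 CPM in control ovaries. The groups overlapped at D030047H15Rik (adjusted p = 0.71), so that 2 antisense loci of the same coding gene gave different results.

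**Figure D2:**
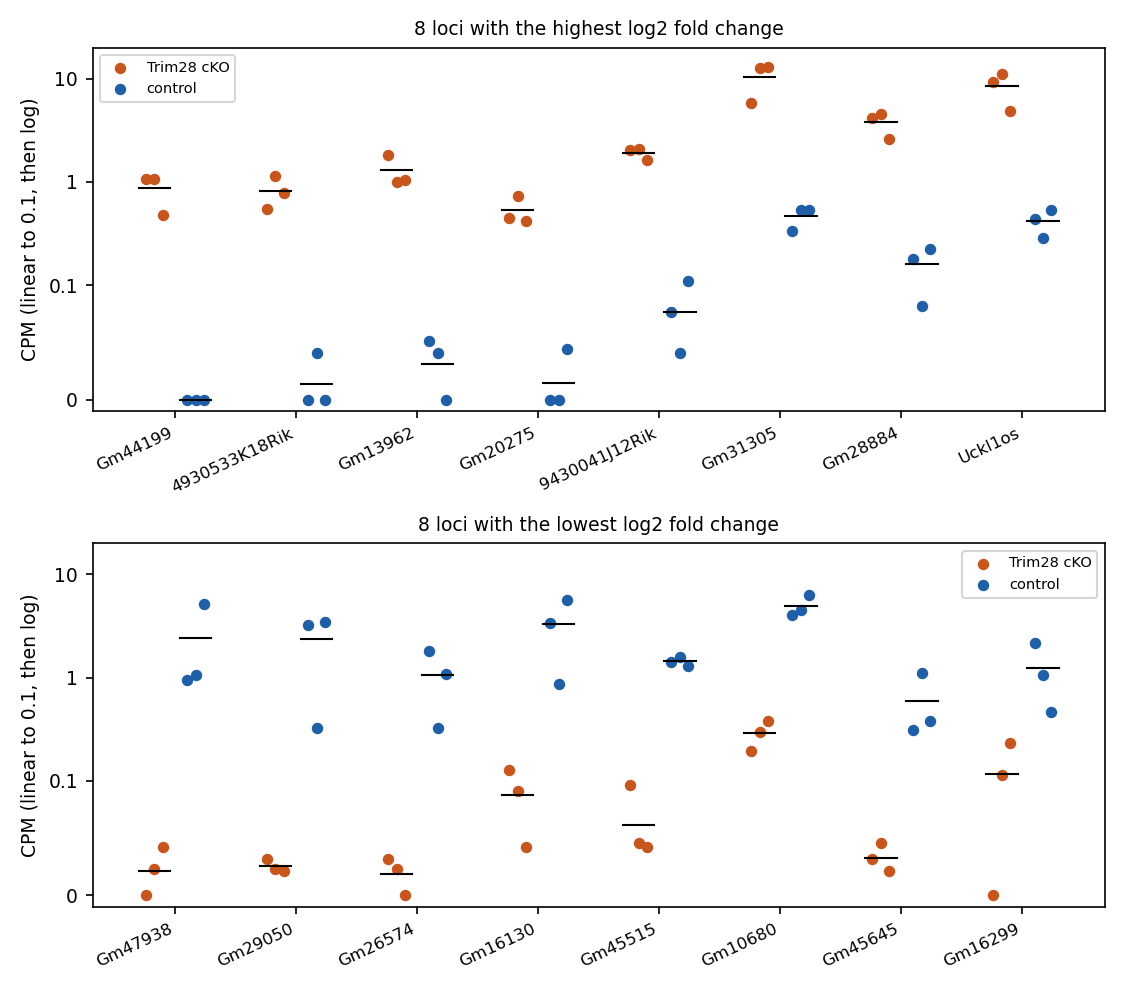
CPM in each library (points; y axis linear to 0.1 and logarithmic above) of the 8 antisense loci with the highest and the 8 with the lowest log2 fold change among those called, with Trim28 cKO in orange, control in blue and group means as black lines. In each of the 16 loci the 3 Trim28 cKO libraries and the 3 control libraries do not overlap. The loci were picked by call and fold change in these same libraries, so this separation is no added support for the calls. The control libraries spread widely at Gm47938, Gm29050, Gm26574 and Gm16130.

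The loci that were lower in Trim28 cKO ovaries varied more among the controls. Gm47938 (inside Cnnm1, a gene of the CNNM metal transporter family) had 0, 1 and 2 reads in Trim28 cKO ovaries and 37, 26 and 235 reads in control ovaries, 112-fold in favour of control (interval 38.0 to 547). Cnnm1 itself was lower, at 2.76 ± 0.292 CPM in Trim28 cKO ovaries and 22.1 ± 4.09 CPM in control ovaries (SD, n = 3 each). Gm29050, tail to tail with Tmem242, had 1 read in each Trim28 cKO ovary and 126, 8 and 157 reads in control ovaries, a ratio of 110 toward control (interval 37.1 to 535). Gm26574, inside the phosphatase gene Ptpn14, had 1, 1 and 0 reads in Trim28 cKO ovaries and 70, 8 and 49 reads in control ovaries, and Gm16130, inside Ccdc33, had 4, 4 and 2 reads in Trim28 cKO ovaries and 132, 21 and 254 reads in control ovaries.

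Control replicate 2 was thus the lowest control at Gm29050, Gm26574 and Gm16130. The summed luteal, theca and Leydig markers were also lowest in that library, at 21220 CPM, against 31694 and 35484 CPM in the other controls. Gm45645, inside Erc2, ran the other way, with 0.0321, 0.0457 and 0.0209 CPM in Trim28 cKO ovaries and 0.308, 1.10 and 0.376 CPM in control ovaries. The oocyte markers summed to 488, 845 and 417 CPM in the same controls, the highest again in control replicate 2. Whether the cell types account for these differences was not tested.

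Other lower loci were more even. Gm45515, inside Swap70, was 0.0962, 0.0457 and 0.0418 CPM in Trim28 cKO ovaries, against 1.41, 1.59 and 1.31 CPM in control ovaries (log2 fold change -4.55 ± 0.41 SE, adjusted p = 0.00044). Swap70, a gene of a protein that links signalling to actin, was 57.7 ± 6.23 CPM in Trim28 cKO ovaries and 67.6 ± 5.19 CPM in control ovaries (adjusted p = 0.16). Gm10680 was 0.192, 0.297 and 0.377 CPM in Trim28 cKO ovaries, against 4.05, 4.49 and 6.35 CPM in control ovaries (log2 fold change -4.07 ± 0.35 SE). Apoa4, the apolipoprotein gene on its other strand, was 1.09, 3.97 and 2.82 CPM in Trim28 cKO ovaries, against 63.4, 77.1 and 41.0 CPM in control ovaries, and 90.0% of the exonic bases of Gm10680 lay under exons of the other strand. Gm16299, inside the splicing factor gene Rbm20, was 0, 0.114 and 0.230 CPM in Trim28 cKO ovaries, against 2.18, 1.06 and 0.465 CPM in control ovaries (adjusted p = 0.026), a call that was lost when Trim28 cKO replicate 2 or control replicate 1 was left out.

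Arhgap20os and 4833422C13Rik, whose start windows are given above, were named after their values were seen. Arhgap20os was 0.449, 0.411 and 0.586 CPM in Trim28 cKO ovaries, against 2.90, 4.16 and 2.26 CPM in control ovaries (log2 fold change -2.67 ± 0.34 SE, adjusted p = 0.0014). 4833422C13Rik was 5.42, 2.81 and 3.89 CPM in Trim28 cKO ovaries, against 28.8, 9.80 and 23.7 CPM in control ovaries (log2 fold change -2.37 ± 0.43 SE). Neither coding partner passed the test, Arhgap20 with an adjusted p of 0.59 and Ssbp2 with 0.14.

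Of the 8 most abundant loci, 3 were called. 4930426D05Rik was 114, 88.7 and 128 CPM in Trim28 cKO ovaries, against 22.2, 35.8 and 25.9 CPM in control ovaries (log2 fold change 1.98 ± 0.21 SE, adjusted p = 0.00073). Klhl14, a Kelch-like gene whose start it overlaps, was 53.6, 57.0 and 60.5 CPM in Trim28 cKO ovaries and 10.4, 27.6 and 11.8 CPM in control ovaries, and the ratio of locus to coding gene did not pass the test (log2 difference 0.07 ± 0.26 SE, limma adjusted p = 0.88). 1810064F22Rik was 59.8, 40.9 and 34.7 CPM in Trim28 cKO ovaries, against 7.39, 5.80 and 13 CPM in control ovaries (log2 fold change 2.36 ± 0.34 SE), and its tail-to-tail partner Zfp872, a zinc finger gene, was also higher (log2 fold change 1.18 ± 0.26 SE). Dnm3os, the host transcript of miR-199a and miR-214 inside the dynamin gene Dnm3, was 25.3, 36.8 and 36.9 CPM in Trim28 cKO ovaries, against 57.6, 50.2 and 53.0 CPM in control ovaries (log2 fold change -0.70 ± 0.16 SE, adjusted p = 0.014), and lost its call without control replicate 1.

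The other abundant loci did not pass the test. Tug1, a nuclear long noncoding RNA that starts next to Morc2a, was 143 ± 24.8 CPM in Trim28 cKO ovaries and 160 ± 12.7 CPM in control ovaries (SD, n = 3 each, adjusted p = 0.42). Rab10os was 37.6 ± 0.142 CPM in Trim28 cKO ovaries and 37.0 ± 1.89 CPM in control ovaries, a log2 difference of 0.02 ± 0.09 SE. Brip1os (59.8 ± 12.2 CPM in Trim28 cKO ovaries, 63.4 ± 2.01 CPM in control ovaries) and 4933431E20Rik (29.1 ± 3.77 CPM in Trim28 cKO ovaries, 28.5 ± 2.54 CPM in control ovaries) also overlapped between the groups. A530020G20Rik did not pass the test (adjusted p = 0.71), while Slc44a3, whose start it overlaps, was lower (log2 fold change -0.70 ± 0.15 SE, adjusted p = 0.0093).

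The position relative to the coding gene was read from the annotation, and 488 of the 539 loci overlapped a coding gene. The coding gene with the longest overlap was taken as the partner, and 73 loci overlapped more than 1. The starts overlapped in 187 loci, 162 lay inside the coding gene, the ends overlapped in 105, 23 lay around the coding gene, 10 were on the same strand, 1 had no known strand and 51 had no overlap. Of 159 tested loci inside the coding gene 34 were higher (21.4%) and 26 lower (16.4%), shares near the 20.2% and 16.8% of all genes. With overlapping starts 19 were higher (10.4%) and 12 lower (6.56%) of 183, with overlapping ends 8 were higher (7.69%) and 14 lower (13.5%) of 104, and without overlap 9 were higher (18.8%) and 2 lower (4.17%) of 48. The position classes were not tested against each other.

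Where locus and partner were both tested (454 pairs), 295 pairs (65.0%) had fold changes of the same sign, and Pearson's r across pairs was 0.36 (Spearman's coefficient 0.38). The pairs share the same 6 libraries and are not independent, so the coefficients describe these data. Both were called in the same direction in 45 pairs, 26 higher and 19 lower, and in opposite directions in 11. In 53 pairs the locus alone was called, in 109 the coding gene alone and in 236 neither. The 45 fell to 27 without Trim28 cKO replicate 2, 23 when control replicate 1 and 24 when control replicate 3 was left out.

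Of 176 pairs with overlapping starts 129 (73.3%) had the same sign, r was 0.62, 20 were called in the same direction and 0 in opposite directions (edgeR). DESeq2 and limma-voom also gave 0 opposite pairs of this kind, and edgeR gave 2 at an unadjusted p of at most 0.05. For loci inside the coding gene 96 of 151 pairs (63.6%) had the same sign and r was 0.33, with 18 pairs called alike and 7 oppositely. For overlapping ends 55 of 96 (57.3%) had the same sign and r was 0.19, with 4 called alike and 3 oppositely. Around the coding gene 10 of 20 pairs had the same sign and r was 0.24, and on the same strand 4 of 10 had the same sign and r was 0.69. The difference between these classes was not tested.

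**Figure D3:**
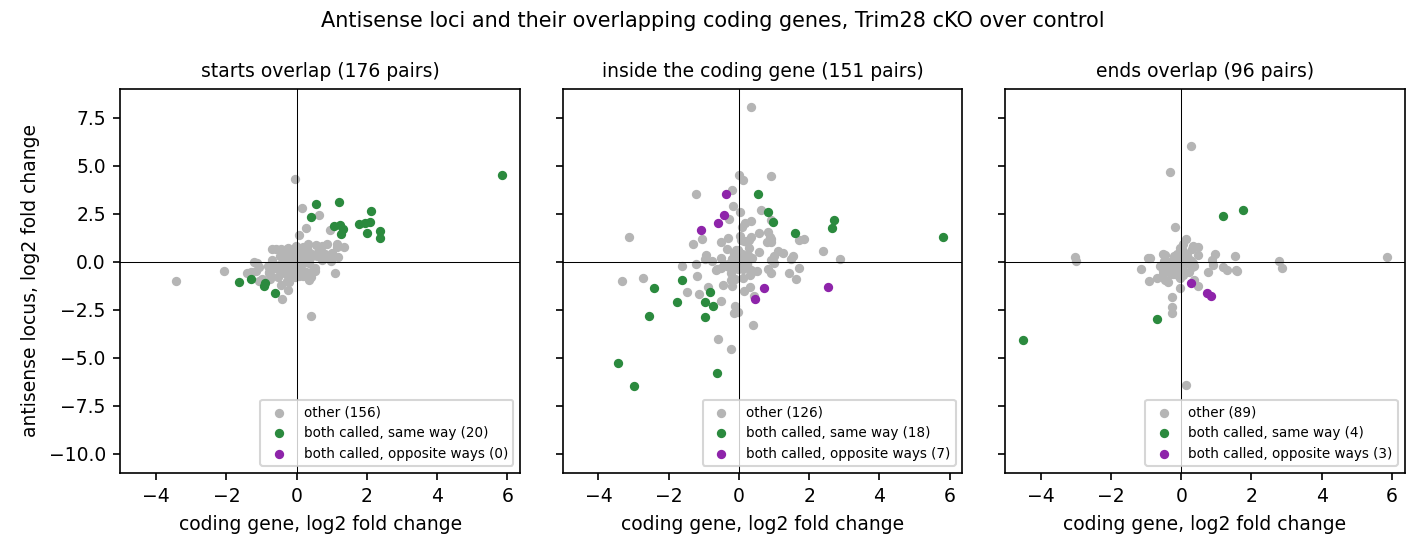
Log2 fold change (Trim28 cKO over control) of the overlapping coding gene (x axis) against that of the antisense locus (y axis), 1 point per pair, for pairs whose starts overlap (176), loci inside the coding gene (151) and pairs whose ends overlap (96). Green points were called in the same direction and purple points in opposite directions. No purple point appears among the pairs with overlapping starts.

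The next coding gene along the chromosome, which the locus did not overlap, served for comparison. In 408 loci with both values, 263 (64.5%) had the same sign as the overlapping gene, with r of 0.37. With the next gene 236 (57.8%) had the same sign, with r of 0.23 at a median distance of 14291 bases. Locus and overlapping gene were called alike in 39 cases and oppositely in 9. Locus and next gene were called alike in 33 cases and oppositely in 11. These counts were not tested against each other. Among pairs with no exonic base of the locus under exons of the other strand 58 of 88 (65.9%) had the same sign, and with at least 50% of exonic bases there 25 of 42 (59.5%) did.

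A few more pairs with overlapping starts were picked after their values were seen and stand for no wider group. Gm33858 was 1.31, 0.982 and 1.23 CPM in Trim28 cKO ovaries, against 0.205, 0.367 and 0.266 CPM in control ovaries (log2 fold change 2.09 ± 0.34 SE), and Cx3cr1, the fractalkine receptor of macrophages and microglia, had a log2 fold change of 2.08. Gm15895 was 1.57, 1.55 and 1.19 CPM in Trim28 cKO ovaries, against 0.282, 0.163 and 0.221 CPM in control ovaries (2.65 ± 0.34), and Il34, a ligand of the CSF1 receptor, had 2.12. Il1bos had a log2 fold change of 1.48 ± 0.42 beside 2.02 for Il1b, the inflammatory cytokine. Gm11131 (2.03 ± 0.50) stood beside the class I histocompatibility gene H2-Q4 (1.95), a member of a multigene family. Only uniquely aligned reads were counted, so reads that match near-identical copies equally well were left out. All 16 macrophage markers were higher, as given above, and the part of that cell type in these values was not tested.

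Opposite directions were called in 11 pairs. Dnmt3aos, inside Dnmt3a, had 31, 22 and 26 reads in Trim28 cKO ovaries and 2, 1 and 3 reads in control ovaries (log2 fold change 3.55 ± 0.50 SE, adjusted p = 0.0020). Dnmt3a, a de novo DNA methyltransferase, was 118, 130 and 143 CPM in Trim28 cKO ovaries, against 162, 176 and 169 CPM in control ovaries (log2 fold change -0.37 ± 0.10 SE, adjusted p = 0.024). Gm30873 was 1.51, 1.48 and 1.15 CPM in Trim28 cKO ovaries, against 0.462, 0.286 and 0.531 CPM in control ovaries. Arnt2, the bHLH-PAS transcription factor gene around it, was 27.2, 48.0 and 30.1 CPM in Trim28 cKO ovaries, against 76.4, 77.9 and 70.6 CPM in control ovaries (log2 fold change -1.09 ± 0.21 SE). In both pairs the locus was higher and the coding gene lower, with no overlap between the groups at any of these genes. Since the pairs were picked by their opposite calls in these same libraries, this is no added support for the calls.

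1600010M07Rik (log2 fold change 2.27 ± 0.33 SE) spans Ipo7, a nuclear import receptor gene (-0.42 ± 0.10), and Gm15401 (2.00 ± 0.51) lies inside Tcf7l1, a repressor of Wnt targets (-0.59 ± 0.18). Gm17025 and Xpnpep3 were the remaining pair of this kind (2.46 and -0.42). In the reverse case, Gm14377 was 0.449, 0.274 and 0.460 CPM in Trim28 cKO ovaries, against 1.15, 0.735 and 1.04 CPM in control ovaries. The phosphatase gene Ptpn5 around it was 8.11, 8.13 and 3.91 CPM in Trim28 cKO ovaries, against 1.18, 1.47 and 0.819 CPM in control ovaries (log2 fold change 2.55 ± 0.38 SE).

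Gm48420 was 1.54 ± 0.204 CPM in Trim28 cKO ovaries and 4.78 ± 1.48 CPM in control ovaries (SD, n = 3 each), while the cAMP phosphodiesterase gene Pde8b on the other strand was 37.2 ± 5.82 CPM in Trim28 cKO ovaries and 22.6 ± 7.08 CPM in control ovaries. 4731419I09Rik was 0.153 ± 0.0454 CPM in Trim28 cKO ovaries and 0.539 ± 0.0738 CPM in control ovaries, and Adam15, a metalloprotease gene, was 132 ± 10.6 CPM in Trim28 cKO ovaries and 73.3 ± 2.56 CPM in control ovaries. Gm44949 (-1.35 ± 0.33) with Zfp710 (0.72 ± 0.14), Gm5577 (-1.13) with Rab7 (0.27) and Gm15945 (-1.92) with Top1mt (0.46) completed the set on the log2 scale. The number of opposite pairs was 7 without Trim28 cKO replicate 1, 5 without Trim28 cKO replicate 2, 5 without Trim28 cKO replicate 3, 3 without control replicate 1 and 7 without control replicate 2. It was 2 without control replicate 3. The calls of Gm14377, Gm15401 and Gm44949 were among those lost.

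**Figure D4:**
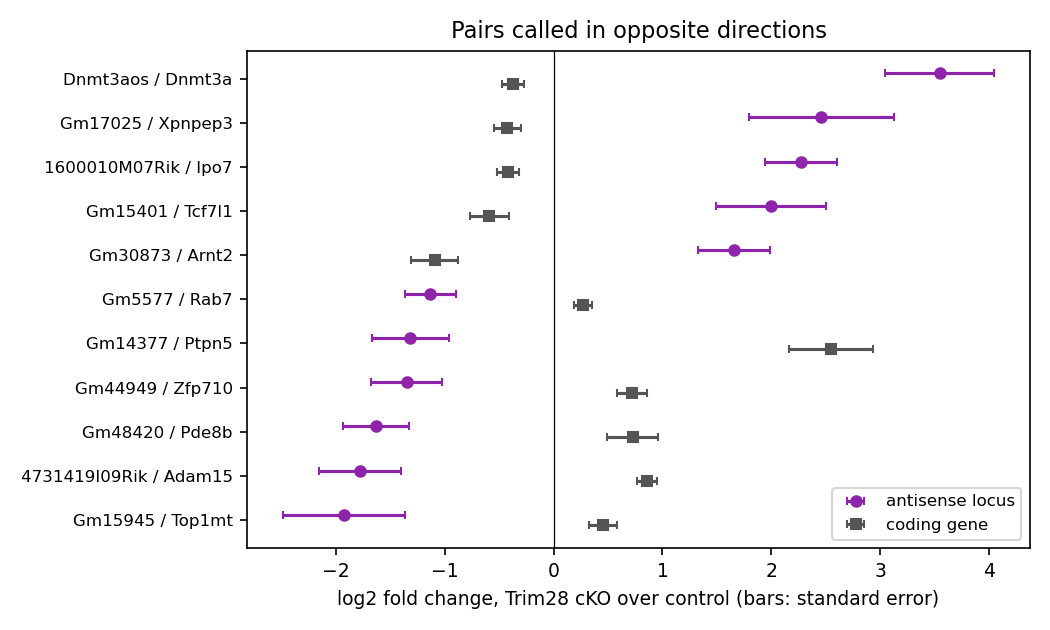
Log2 fold change with its standard error (x axis, Trim28 cKO over control) of the antisense locus (purple circles) and of its overlapping coding gene (grey squares) in the 11 pairs called in opposite directions. In 5 pairs the locus is to the right of 0 and the coding gene to the left, and in 6 pairs the reverse holds.

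The ratio of locus to coding gene was tested directly within each library (limma on log2 CPM with a prior count of 2). Over all 483 antisense pairs with both genes tested, 10.8% had a higher and 10.1% a lower ratio in Trim28 cKO ovaries. Among the 454 pairs of the loci described here, 48 had a higher and 47 a lower ratio, so their share is near that of the whole set, of which they form the greater part. Gm31305 to Pde4dip (log2 ratio 4.28 ± 0.34 SE, adjusted p = 4.39e-05), Uckl1os to Uckl1 (4.16 ± 0.38, adjusted p = 6.86e-05) and Gm28884 to 4933407L21Rik (3.17 ± 0.34, adjusted p = 0.00022) changed while the coding gene did not pass the test. D030047H15Rik to Ttyh1 (-5.56 ± 0.47, adjusted p = 4.39e-05) changed while the locus did not pass the test.

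The same held for Gm10602, which was 8.95, 14.7 and 11.2 CPM in Trim28 cKO ovaries and 9.77, 11.9 and 12.0 CPM in control ovaries. Folr2, a folate receptor gene of tissue macrophages, was 19.9, 18.1 and 18.9 CPM in Trim28 cKO ovaries, against 2.98, 3.35 and 1.93 CPM in control ovaries, and the log2 ratio differed by -2.77 ± 0.31 SE (adjusted p = 0.00023). Gm19461 (3.23 ± 1.01 CPM in Trim28 cKO ovaries, 4.02 ± 1.13 CPM in control ovaries) overlapped between the groups, while Plekha6 was higher (log2 fold change 1.70 ± 0.22 SE). For Gm45515 to Swap70 (-3.52 ± 0.39) and Gm44199 to Brk1 (3.75 ± 0.45) the locus changed and the coding gene did not pass the test.

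In 5 loci the partner was a marker of an ovarian cell type. Gm29682, whose start overlaps the endothelial cadherin gene Cdh5, was 0.834, 0.480 and 1.40 CPM in Trim28 cKO ovaries, against 2.15, 2.33 and 3.21 CPM in control ovaries (log2 fold change -1.5 ± 0.42 SE, adjusted p = 0.030), but lost its call when any of 5 libraries was left out, and Cdh5 did not pass the test (-0.24 ± 0.13). Irx3os was 2.63 ± 0.258 CPM in Trim28 cKO ovaries and 3.15 ± 0.245 CPM in control ovaries (SD, n = 3 each, adjusted p = 0.39), whereas Irx3, a granulosa cell homeobox gene, was lower (log2 fold change -1.08 ± 0.21 SE). Gm10824, around the stromal factor gene Tcf21, had a log2 fold change of -0.65 ± 0.29 (adjusted p = 0.12), Gm48529 at the smooth muscle gene Tagln 0.17 ± 0.27 and Gm10648 at Lgals7 0.19 ± 0.59, and none of these passed the test.

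Genes that process antisense RNA were taken as a separate list. Of 19 genes of nuclear RNA decay and termination 3 were lower, about the share of all genes (16.8%), namely the exosome nuclease gene Dis3 (log2 fold change -0.71 ± 0.10 SE), Zfc3h1 (-0.47 ± 0.15) and the Integrator subunit gene Ints1 (-0.37 ± 0.10), and the median was -0.08. Of 19 genes that sense, edit or cut double-stranded RNA 8 were higher and 7 lower, with a median of 0.28. The higher ones were sensors and effectors induced by interferon, among them Oas3 (2.64 ± 0.34), Oas1a (1.93 ± 0.27), Zbp1 (3.73 ± 0.74) and Tlr3 (1.33 ± 0.26). The lower ones were Dicer1 (-0.71 ± 0.12), Drosha (-0.51 ± 0.09), Dgcr8, Ago1, Ago2, Ago3 and the editing enzyme gene Adarb1, most of them small RNA processing genes.

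Of 22 chromatin repressor genes 1 was higher and 10 were lower, with a median of -0.31. Rbbp7, a histone-binding subunit of several repressor complexes, was the higher one (1.20 ± 0.26). Ezh2, the catalytic subunit of PRC2 (-1.45 ± 0.11), the maintenance DNA methyltransferase gene Dnmt1 (-1.06 ± 0.12), Jarid2 (-0.96 ± 0.13) and the HUSH subunit gene Mphosph8 (-0.68 ± 0.13) were lower, and Setdb1 (0.18 ± 0.10) did not pass the test. The shares of all genes called were 20.2% higher and 16.8% lower.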

How the data were processed

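Total RNA from whole ovaries was made into TruSeq Stranded mRNA libraries and sequenced as single 50-base reads. Per the labels and methods, the authors used bcl2fastq 2.17.1.14, aligned with STAR 2.5.3a to mm10, counted uniquely aligned reads with HTSeq 0.6.1p1 in union mode on Ensembl 92 genes, and compared groups with DESeq2 1.16.1. Whether the counting used strand was not stated. The deposited counts, whole numbers of reads per gene, were used, while the deposited log2 fold changes and p-values of the authors' own comparison were not. The authors also deposited normalised signal values, the counts divided by a size factor and then by transcript length, which were left out. No molecular identifiers are described, so counting intervals cover counting error only.

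Genes with at least 10 reads in enough libraries and 15 in all (filterByExpr) were tested with edgeR 4.0.16 (TMM, quasi-likelihood, 3 against 3 libraries, two-sided, Benjamini-Hochberg over all genes tested). An exact permutation test of 3 against 3 cannot go below p = 0.1. Ratios used limma 3.58.1. Intervals for ratios of few reads are exact (Clopper-Pearson) at 95%. The tests were checked on simulated data, in which every gene had the same spread between libraries and far fewer genes changed than were called here. That check therefore does not cover loci that vary widely between libraries. Strand and exons came from GENCODE M21 (GRCm38, the build of mm10), in which 537 of the 539 loci were found and 531 had the same start and end. The 39 antisense genes whose every exonic base lies under exons of the other strand all had reads. Union counting without strand would leave such reads unassigned if the exons are the same in Ensembl 92. Only 3 of the 39 were among the 539 loci, with 82 to 179 summed reads. The deposited counts may leave out genes without reads. That all 39 had reads may then follow from their being listed, so it does not settle whether strand was used.

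Named were the 8 highest and 8 lowest called loci, the 8 most abundant, up to 8 opposite pairs, up to 8 changed ratios and loci whose partner was a listed marker, and the text says where others were added. The loci, lists and tests were chosen with earlier results of these data known. Per the labels, 3 mice were used for each group. That each library is 1 mouse is not said, so p-values measure the spread between these libraries. Same-numbered libraries of the groups did not deviate together (correlations -0.07, 0.06 and -0.17) and were not paired.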

Additional observations from a re-analysis of the deposited data

How the results depend on the processing

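Of the 40 named loci 28 were called, and none of these, where tested, changed direction under another tool, filter, scaling, block or left-out library. Of the 28, 6 lost their call with a library left out (Dnm3os, Gm14377, Gm15401, Gm16299, Gm29682 and Gm44949) and none with DESeq2, limma-voom, DESeq2 size factors or no filter. Requiring at least 1 CPM in 3 libraries, which tests fewer loci, gave 37 higher and 29 lower loci, 22 pairs called alike and 4 oppositely. With the replicate block, which the data do not call for, there were 59 higher and 33 lower loci, 26 pairs called alike, 7 oppositely, 96 changed ratios and 5501 called genes, and Gm16299 lost its call. With a log2 fold change beyond 1 required, 4121 genes instead of 7021 were called, 28 pairs alike and 2 oppositely. Requiring an overlap of at least 50% of the antisense span left 25 pairs called alike. With 1 library left out, higher loci numbered 52 to 63, lower loci 29 to 48, pairs called alike 23 to 37, opposite pairs 2 to 7, changed ratios 80 to 98 and all genes called 4777 to 6333. Of the 145 tested loci with fewer than 120 reads in all, 24 were called higher and 11 lower, each by more than 2-fold. Among all tested genes with 60 to fewer than 120 reads, all 222 higher and all 130 lower ones did so too. At this depth no gene was called with a smaller change, so the 2-fold size is no added support for the calls.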

Other observations

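Some loci near developmental transcription factor genes were named after their values were seen. Wt1os was 18.9, 24.0 and 14.9 CPM in Trim28 cKO ovaries and 13.9, 11.6 and 13.4 CPM in control ovaries, without overlap between the groups, and did not pass the test (log2 fold change 0.57 ± 0.20 SE, edgeR adjusted p = 0.057). Hoxd3os1 was 7.32 ± 1.23 CPM in Trim28 cKO ovaries and 7.34 ± 1.22 CPM in control ovaries (SD, n = 3 each), while Hoxd3, whose start it overlaps, had a log2 fold change of -1.21 (edgeR adjusted p = 0.016). Zeb2os was 8.24, 5.78 and 7.93 CPM in Trim28 cKO ovaries, against 3.15, 3.27 and 2.74 CPM in control ovaries (log2 fold change 1.26 ± 0.22 SE, edgeR adjusted p = 0.0047), and Zeb2 did not pass the test (-0.32).

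Of the loci with no overlapping coding gene, F630028O10Rik was picked outside the naming rules and stands for no wider group. It was 7.76, 9.98 and 12.4 CPM in Trim28 cKO ovaries, against 2.85, 2.49 and 2.32 CPM in control ovaries (log2 fold change 1.98 ± 0.23 SE). Its nearest coding gene was Vsig4, a complement receptor gene of tissue macrophages, 3567 bases away. The 46 loci of this kind with a tested nearest coding gene shared its sign in 28 cases, at a median distance of 266 bases over all 51.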
